A study of Mus musculus with 2 samples.

Results

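The genes described here carry the retinoic acid signal. They are 3 retinoic acid receptors (Rara, Rarb and Rarg), 2 retinoid X receptors (Rxra and Rxrb), 2 retinaldehyde dehydrogenases (Aldh1a1 and Aldh1a2), the carrier Crabp2 and the membrane receptor Stra6. They were chosen by their place in the pathway and on peaks and footprints of these same libraries, so every value below is a description and carries no test. All 9 of 21728 protein-coding genes on autosomes and X were found in the annotation (GENCODE M21, mouse build mm10). Each was taken with its gene body and 50 kb either side, and these windows span 1777 kb in all.

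Open chromatin was measured by DNase-seq, which sequences the ends left where the nuclease DNase I cuts accessible DNA. The tissue was whole ovary of adult female B6CASTF1/J mice, first-generation hybrids of the C57BL/6 and CAST strains, aged 18 to 20 months, with no treatment named in the labels. There was 1 group of 2 libraries, labelled biological replicates 1 and 2, and no other group to set them against. Both carry the same donor entry and separate biosample entries, and whether they came from 1 animal or more is not stated, so the spread given is that between these libraries. The files hold peaks (95860 and 83934 on autosomes and X), footprints, which are short stretches protected from cutting inside open DNA (181693 and 200902), and a false discovery rate (FDR) of the cut rate per base, listed only below 0.05. The windows held 140 and 129 of the peaks and 316 and 345 of the footprints.

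Retinol enters cells through receptors such as STRA6, is oxidised to retinal and then, by retinaldehyde dehydrogenases, to retinoic acid. CRABP2 carries retinoic acid to the nucleus, where receptors of the RAR family bind DNA as pairs with RXR. The pairs bind direct repeats of a short half-site with a fixed spacing, called DR1, DR2 or DR5 after the number of bases between the copies, and Rarb is the textbook target through a DR5 in its promoter. In the fetal ovary the pathway is known for inducing Stra8 in germ cells that enter meiosis.

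The tissue label was checked by promoter peaks of marker genes. Such peaks were common, and both libraries held one at 62.3% of all protein-coding genes. An open marker by itself therefore says little of the tissue. A promoter peak was present in both replicates at 4 of 5 granulosa cell genes and 4 of 4 genes of theca and other steroidogenic cells, and in neither at 3 of 3 hepatocyte genes and 3 of 3 leukocyte genes. Fshr, which binds follicle-stimulating hormone, had one in replicate 2 alone. Of 4 stromal genes 3 were open in both and Lum in neither, and of 5 surface epithelium genes Lhx9 and Krt8 were open in both, Krt18 in replicate 1 alone and Upk1b and Upk3b in neither. Of 4 oocyte genes Gdf9 was open in both, at 10.2 and 16.9, and Zp3, Nobox and Figla in neither. Whether the Gdf9 peak also lies at the start of another gene was not checked. Of 3 endothelial genes Cdh5 and Kdr were open in both and Pecam1 in neither. Of 3 oviduct genes Foxj1 was open in both and Pax8 and Ovgp1 in replicate 2 alone, and the part of oviduct or of any other cell type in the values below was not tested. In a whole tissue, fewer cells of a type and less open chromatin per cell cannot be told apart.

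All 9 genes had a peak within 500 bp of an annotated start in both replicates, against 62.3% of all protein-coding genes. Over protein-coding starts alone 8 of the 9 did, against 60.9%, and in the shorter of the deposited peak lists 7 did, against 57.9%. By the strongest such peak, in the authors' depth-scaled signal, the order was Rxrb, Rara, Rxra, Rarg, Aldh1a1, Rarb, Aldh1a2, Stra6 and Crabp2. Rxrb was highest, at 9.63 in replicate 1 and 11.7 in replicate 2, and 90.9% and 88.7% of genes with a promoter peak were weaker. That peak also lies at the start of Slc39a7, so the rank is not of Rxrb alone. Crabp2 was lowest by the mean, at 0.646 and 0.766, and 6.80% and 9.60% were weaker. The order also rests on the starts and the limit used. Over protein-coding starts alone Rxra had a mean of 2.10, below Rarg and Aldh1a1. With promoters of 2000 bp either side Rarg had 7.43, above Rara. Several neighbours in the main order did not differ beyond their spread. Rara (5.19 ± 1.85, SD, n = 2) overlapped Rxra (3.67 ± 0.228), Rarg (2.49 ± 0.0869) overlapped Aldh1a1 (2.42 ± 0.122), and Stra6 (0.719 ± 0.277) overlapped both values of Crabp2, which come from different starts in the replicates.

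The open start was often not the first one of the gene. The annotated 5′ end of Rara, Rarb and Stra6 had no peak in either replicate, that of Crabp2 had one in replicate 1 alone, and that of Aldh1a1 was weaker than an internal start. Rarg and Rxra had peaks at their 5′ end and stronger ones at internal starts. The stronger internal start of Rxra belongs to a transcript that is not protein-coding. Over protein-coding starts alone the 5′ end of Rxra was the strongest by the mean, at 2.10 against 1.82. In Rxrb the strongest promoter peak lay at the 5′ end itself, and in Aldh1a2 it lay there in replicate 2 and 329 bp upstream in replicate 1.

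**Figure D1:**
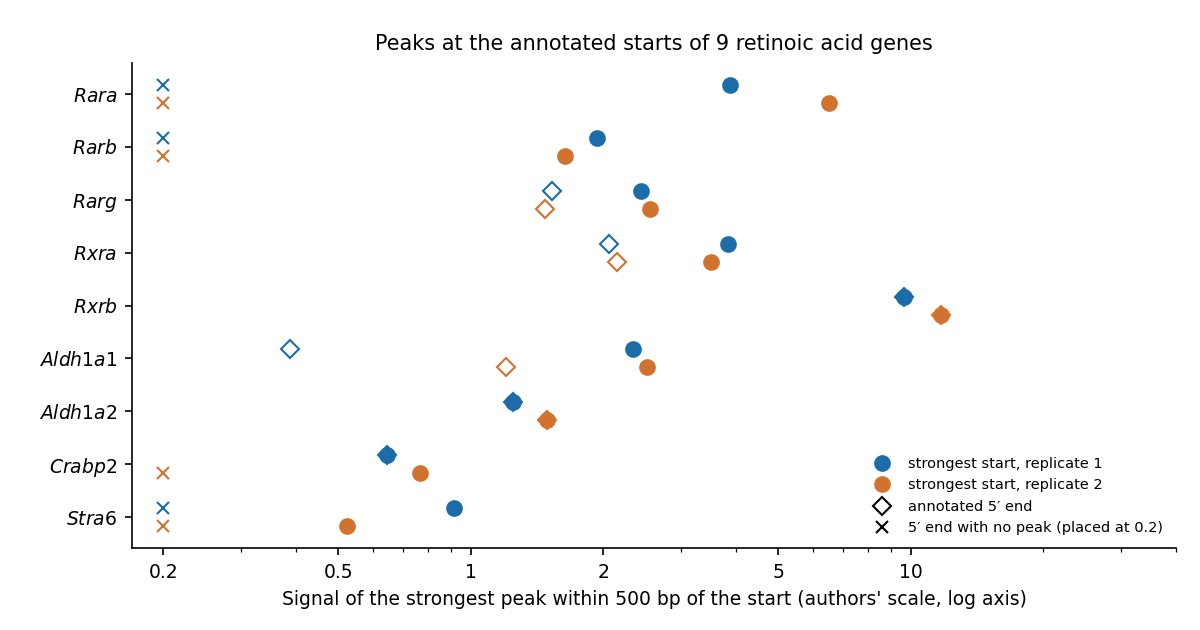
Signal of the strongest peak within 500 bp of a start (log axis, authors' scale) for each gene, in replicate 1 (blue) and replicate 2 (orange). Filled circles are the strongest annotated start, open diamonds the annotated 5′ end, and crosses at 0.2 mark a 5′ end with no peak, as in both replicates of Rara, Rarb and Stra6.

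The windows held 159 regions, a region being the union of overlapping peaks of both replicates. Of these, 105 (66.0%) held a peak of both replicates, against 57.7% of all 112418 regions, and are called shared below. The other 54 were found in 1 replicate alone, 31 in replicate 1 and 23 in replicate 2, and in 7 of the 54 the other replicate still listed a base with an FDR below 0.05. The median signal over these 105 was 1.52 in replicate 1 and 1.51 in replicate 2, beside 1.12 and 0.977 over all 64875 shared regions. Of the 105, 19 lay at starts of the 9 genes, 17 at starts of other genes, 34 in introns and 4 in exons of the 9 genes, and 31 elsewhere.

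Density differed widely among the genes. Per 100 kb of window, Crabp2 had 12.4 shared regions, Rara 12.2 and Rarg 10.6, where the median protein-coding gene had 4.48. Rxra had 8.58, Stra6 7.89 and Rxrb 7.51. Aldh1a2 had 3.32, Aldh1a1 3.19 and Rarb, whose gene is by far the longest of the 9 at 388318 bp, 1.64. With flanks of 10 kb the order changed, to 22.3 for Rara, 18.8 for Rxrb, 16.4 for Rarg, 13.1 for Rxra and 8.09 for Crabp2. With the shorter lists Rara had 6.80, Rxrb 2.81 and Rarb 0.205 in the full windows. The median of 4.48 holds for flanks of 50 kb and the longer lists, and none is given for these alternatives. The 13 shared regions of the Crabp2 window lay outside its body, which held 0, while 12 of the 18 in the Rara window lay in the body of Rara. Measured over bases instead of peaks, 9.72% of the Rarg body, 8.20% of Rxrb, 7.34% of Rara and 4.90% of Rxra had an FDR below 0.05 in both replicates. The share was 1.98% for Stra6, 0.950% for Aldh1a2, 0.853% for Aldh1a1, 0.395% for Rarb and 0% for Crabp2, and the median gene body had 1.14%.

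**Figure D2:**
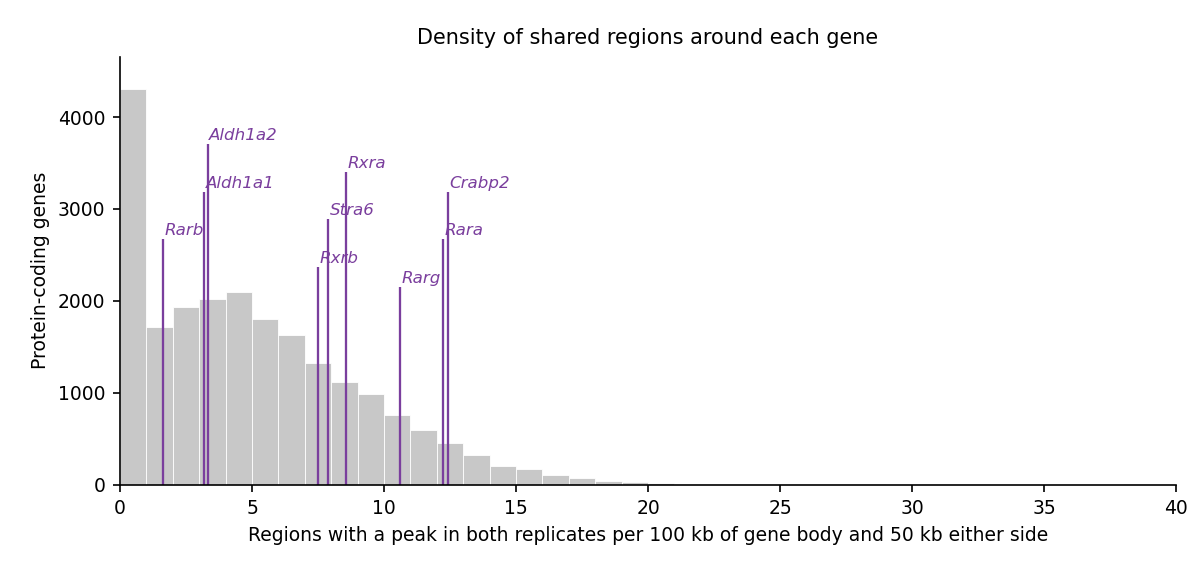
Number of protein-coding genes (grey bars) by shared regions per 100 kb of gene body and 50 kb either side, with the 9 genes marked by purple lines. Crabp2 (12.4) and Rara (12.2) lie in the upper tail, and Rarb (1.64), Aldh1a1 (3.19) and Aldh1a2 (3.32) below the median of 4.48; the heights of the lines carry no value.

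Rara encodes the retinoic acid receptor alpha, which is made in many tissues. Its gene (ENSMUSG00000037992.16, chr11:98927818-98974942, plus strand) and 3 kb either side held 20 regions, 14 of them shared, which together form a cluster from 98925481 to 98975620. The body alone held 12 shared regions. Of the 1487 genes of 40 to 55 kb, 3 had 12 or more, Rara among them, and the median gene had 2. The cluster was chosen with these same peaks known, so this count is a description and no test of rarity. Of the 14, 13 had a footprint in both replicates, against 77.4% of all shared regions. The nearest region outside the cluster, chr11:98922391-98922539 in an exon of Cdc6, had signals of 1.45 and 0.782, and the cluster's outermost regions had 1.44 and 2.02 upstream and 2.69 and 1.38 downstream.

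The 14 sites fell into 2 at starts, 8 in introns, 2 in exons and 2 beside the gene. Upstream of the 5′ end, chr11:98925481-98925680 lay 2138 bp from it. In an intron, chr11:98933258-98933520 had signals of 2.66 in replicate 1 and 2.78 in replicate 2. The region chr11:98937501-98937720 at the starts of 98937698 and 98937718 had 3.89 and 6.50, and was the strongest at any Rara start. The region at the start of 98960412, chr11:98960281-98960620, had 1.99 and 1.71. By the mean of the replicates, the 3 strongest sites away from starts were intronic, and these were higher in replicate 2. They were chr11:98954401-98954700 with 3.28 and 6.70, chr11:98966681-98966920 with 3.65 and 5.84, and chr11:98951421-98951940 with 3.55 and 5.65.

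Among the other intronic sites, chr11:98959521-98959740 had 3.94 and 3.45, and was the strongest site of the cluster in replicate 1. The site chr11:98955501-98955680 had 2.42 and 3.84. The sites chr11:98963601-98964000, with 2.65 and 3.41, and chr11:98945661-98945852, with 2.09 and 2.32, were weaker. The cluster ended in 3 sites at the 3′ end of the gene, all higher in replicate 1. These were the exonic chr11:98971461-98971607 with 1.13 and 0.977, the exonic chr11:98972321-98972520 with 3.35 and 1.22, and chr11:98975441-98975620 beyond the gene with 2.69 and 1.38. The strongest regions of the whole window were the starts of its neighbours Cdc6, chr11:98907621-98907820 with 7.68 and 9.71, and Top2a, chr11:99024141-99024400 with 8.06 and 3.52. Across the cluster 9 of the 14 sites were thus higher in replicate 2 and 5 in replicate 1, and the log2 ratio of replicate 2 to replicate 1 ran from −1.46 to 1.03, where over all shared regions its median was −0.03 and its SD 0.56.

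**Figure D3:**
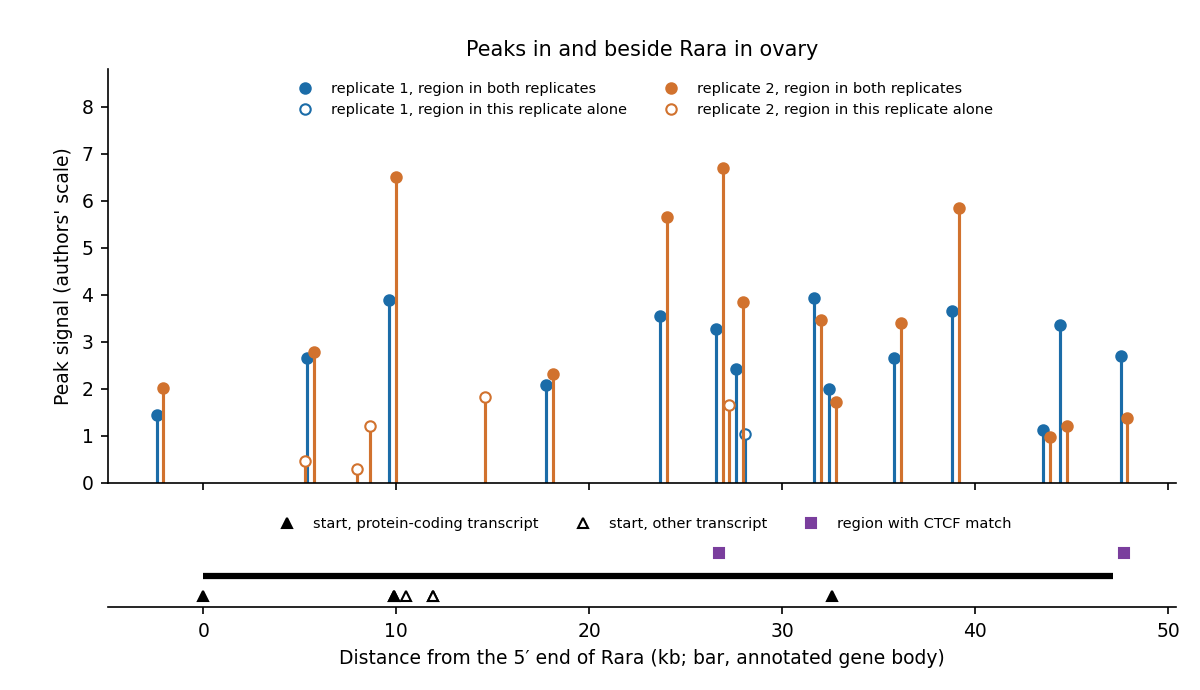
Peak signal (authors' scale) in and beside Rara against distance from its 5′ end in kb, replicate 1 in blue and replicate 2 in orange, with open circles for regions found in 1 replicate alone. The 5′ end at 0 has no peak, the tallest points lie inside the gene and are of replicate 2, and the 3 rightmost sites are higher in replicate 1.

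The strongest start region and the strongest site away from starts, both by the mean of the replicates, are printed (GRCm38.p6, plus strand). The start region was the strongest at a Rara start in each replicate. The rank of the intronic site rests on replicate 2. In replicate 1 it had 3.28, and chr11:98959521-98959740 was stronger at 3.94. Capitals mark bases in a footprint of both replicates.
Rara start, chr11:98937501-98937720: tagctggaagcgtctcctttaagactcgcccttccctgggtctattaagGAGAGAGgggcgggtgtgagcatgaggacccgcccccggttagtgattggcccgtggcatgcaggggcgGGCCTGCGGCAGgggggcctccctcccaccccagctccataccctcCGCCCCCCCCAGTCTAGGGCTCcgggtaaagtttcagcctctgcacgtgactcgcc
Rara intron, chr11:98954401-98954700: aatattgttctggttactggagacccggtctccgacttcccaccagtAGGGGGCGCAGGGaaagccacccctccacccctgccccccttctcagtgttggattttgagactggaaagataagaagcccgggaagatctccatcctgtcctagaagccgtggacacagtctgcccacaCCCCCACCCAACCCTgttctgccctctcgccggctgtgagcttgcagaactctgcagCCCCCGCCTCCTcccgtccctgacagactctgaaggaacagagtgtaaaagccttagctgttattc
The start region had 3 footprints in replicate 1 and 4 in replicate 2, and the intronic site 3 and 4. The first protected stretch of the intronic site overlaps a match to the motif of CTCF, the insulator protein. In the Rara window 72.1% of the footprints of replicate 1 in shared regions overlapped one of replicate 2, and 70.5% the other way round, which was above the 58% and 51.1% over all shared regions. Footprints were also more numerous per region there, with 61 in each replicate over 18 shared regions. All 64875 shared regions held 149019 in replicate 1 and 169688 in replicate 2. The part of footprint number in the overlap was not tested.

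The FDR values of the Rara cluster were less extreme than those of other regions of like signal. Among shared regions with a signal of 2 to 4 in replicate 1, the median log10 of the lowest FDR was −9.65 over the 11 in the Rara cluster, −14.8 over the 18 in the rest of the windows and −19.8 over all 10213. In replicate 2 it was −5.34 over 6, −16.1 over 18 and −19.2 over all 7931. The least extreme value of all such regions in the genome, −1.78 in replicate 1 and −2.61 in replicate 2, belonged to a Rara site in each case. The shorter lists held 8 of the 14 sites in both replicates, where 63.5% of all shared regions were in both shorter lists.

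The 6 remaining regions of the cluster were found in 1 replicate alone, 5 in replicate 2 and 1 in replicate 1. One of them, chr11:98936141-98936380, had a signal of 1.22 in replicate 2 with 5 footprints and a lowest FDR of 4.32e-39, and replicate 1 listed no base there below 0.05. It lay 1318 bp upstream of the open internal starts, and was chosen for mention after its values were seen.

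Rarb encodes the retinoic acid receptor beta. Its body (ENSMUSG00000017491.9, chr14:16430839-16819156, minus strand) held 7 shared regions, and 2 of the 8 in its window lay at starts. Neither the 5′ end at 16819156 nor the start at 16819005 had a peak, and the observed-over-expected CpG ratio around the 5′ end, 250 bp either side, was 0. The open promoter lay 243613 bp further into the gene at 16575543, where the ratio was 0.804. Its region, chr14:16575521-16575760, had a signal of 1.94 in replicate 1 and 1.63 in replicate 2, with lowest FDRs of 3.13e-29 and 4.70e-19. The next region, chr14:16574921-16575200, had 0.517 and 0.375. The remaining 6 regions were weaker than the main promoter, and the strongest of them, chr14:16434461-16434660, had 0.872 and 0.477. This region lay in an intron of Rarb and also overlapped the body of Top2b. Next came chr14:16841041-16841240 upstream of the gene, with 0.614 and 0.430.

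The Rarb promoter is the only place where a DR5 touched a shared region of these genes, and it touched the peak of replicate 1 alone. The repeat is shown with those of Rara and Crabp2 that lay nearest to starts, each on the strand that matched (GRCm38.p6). Capitals mark the half-sites.
Rarb DR5, chr14:16575513-16575529, minus strand: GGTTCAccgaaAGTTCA
Rara DR5, chr11:98960008-98960024, plus strand: AGTTCAgcaagAGTTCA
Crabp2 DR2, chr3:87947525-87947538, plus strand: AGTTCAccAGGTCA
The Rarb repeat spans −53 to −37 bp of the RefSeq start at 16575476, and lies downstream of the GENCODE start at 16575543. All 17 of its bases had a listed FDR in both replicates, from 9.42e-20 to 1.56e-14 in replicate 1 and from 2.55e-11 to 1.86e-07 in replicate 2. The 9 bases inside the shared region lay in the peak of replicate 1, which ended at −45 bp. The peak of replicate 2 ended at −65 bp and did not reach the repeat. No footprint of either replicate lay in the repeat. The Rara repeat lay 256 bp from the nearest shared region and 396 bp from the start at 98960412, and none of its bases had a listed FDR. The Crabp2 repeat lay 1134 bp from a start, and none of its bases had a listed FDR either.

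**Figure D4:**
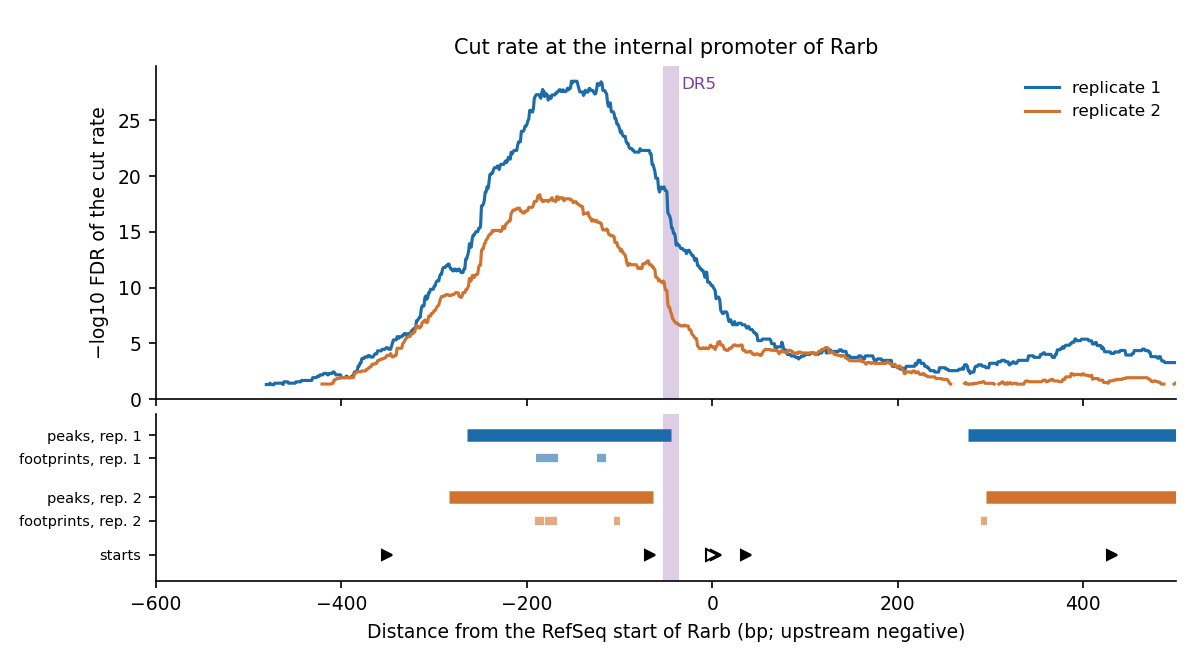
Minus log10 of the FDR of the cut rate per base around the internal promoter of Rarb, by distance from the RefSeq start (upstream negative), with peaks, footprints and annotated starts below (open triangle, RefSeq start; filled, GENCODE). In both replicates the DR5 at −53 to −37 bp (purple) lies on the downstream slope of the open stretch, outside the footprints.

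Whole direct repeats numbered 0 to 2 in open DNA of these genes, depending on how open DNA was bounded. The search read the GRCm38.p6 reference sequence and not CAST alleles. In it the half-site was searched in 4 forms on both strands without mismatch. They were AGGTCA, the textbook form, then AGTTCA, which stands in the Rarb repeat, then GGGTCA, which stands in neither repeat printed for the receptors, and GGTTCA, which is the other form in the Rarb repeat. Spaced by 1, 2 or 5 bases it matched 56 times in the windows, 21 times in soft-masked repeats. Of the 56, 2 lay wholly in bases with a listed FDR in both replicates, and the second of them, a DR1 at chr17:34027880-34027892 in the Rxrb window, lay 88 bp from the region at the start of H2-Ke6. Within the edges of the 105 shared regions there were 0 whole repeats, where 0.462% of all shared regions held one. Widened by 50 bp either side, 1 of 105 did, against 0.621%. Of the 173 stretches with an FDR below 0.05 in both replicates, 2 (1.16%) held one, against 0.292% of all 110172. Single half-sites matched in 40 of the 105 (38.1%), against 42.1% of all shared regions, and 4 of the 50 matches were centred in a footprint of both replicates, against 6.99% of all such matches. A match is a description of letters, and a window without one says nothing of a factor's binding.

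Rarg encodes the retinoic acid receptor gamma. Its gene (ENSMUSG00000001288.15, chr15:102234938-102257517, minus strand) was open at the 5′ end, in chr15:102257521-102257840, with 1.53 in replicate 1 and 1.48 in replicate 2. The internal start at 102246500 had 2.43 and 2.56 in chr15:102246361-102246620, and the one at 102243589 had 1.40 and 1.52. The strongest Rarg site, chr15:102247001-102247240, lay 501 bp upstream of the start at 102246500, just outside the promoter limit, with 6.33 and 8.53. It is shown because it outranks every start of the gene (GRCm38.p6, plus strand), with bases in a footprint of both replicates in capitals.
Rarg, chr15:102247001-102247240: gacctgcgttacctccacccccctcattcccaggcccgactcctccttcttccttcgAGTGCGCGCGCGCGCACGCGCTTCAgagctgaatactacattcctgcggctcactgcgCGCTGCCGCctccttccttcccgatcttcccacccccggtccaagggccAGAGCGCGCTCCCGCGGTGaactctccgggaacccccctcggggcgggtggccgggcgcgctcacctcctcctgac
The site had 4 footprints in replicate 1 and 5 in replicate 2. Its first protected stretch, of 25 bases, held a match to the motif of NRF1, an activator of housekeeping and mitochondrial genes, whose match occurs in 2.86% of all shared regions. The other strong regions of the window lay at the start shared by Csad and Zfp740, chr15:102203441-102203680 with 7.50 and 13.2, and at the start of Espl1, chr15:102296101-102296300 with 5.13 and 5.03.

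Rxra encodes the retinoid X receptor alpha, a partner of many nuclear receptors. Its gene (ENSMUSG00000015846.14, chr2:27676440-27762957, plus strand) was open at the 5′ end, in chr2:27676141-27676460, with 2.06 in replicate 1 and 1.97 in replicate 2, and in chr2:27676841-27677120 with 1.5 and 2.15. Another region there, chr2:27677593-27678000, had 0.635 and 0.774. The starts at 27709292 and 27710583 had no peak. The region chr2:27740341-27740560 had 3.83 and 3.51, but the start beside it, at 27740201, belongs to a transcript that is not protein-coding, and over protein-coding starts alone the promoter signal of Rxra was 2.10. The strongest site, chr2:27758501-27758680, was intronic and nearly equal in the replicates, at 6.51 and 6.43. It is shown for that reason (GRCm38.p6, plus strand), with bases in a footprint of both replicates in capitals.
Rxra intron, chr2:27758501-27758680: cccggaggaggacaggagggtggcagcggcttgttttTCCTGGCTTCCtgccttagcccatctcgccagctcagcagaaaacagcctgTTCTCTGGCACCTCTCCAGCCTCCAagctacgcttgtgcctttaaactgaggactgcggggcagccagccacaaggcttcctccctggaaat
The intronic site had 3 footprints in each replicate. The next of its strong sites was the intronic chr2:27699621-27699840 with 2.40 and 3.32. Beyond the 3′ end, chr2:27765001-27765220 had 3.62 and 1.62, and chr2:27771981-27772260 had 3.37 and 1.51, so both were higher in replicate 1, by −1.16 on the log2 scale of replicate 2 over replicate 1.

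Rxrb encodes the retinoid X receptor beta. It is a short gene of 6588 bp in the major histocompatibility complex (ENSMUSG00000039656.17, chr17:34031812-34038399, plus strand). The region at its 5′ end, chr17:34031581-34031820, also lies at the start of Slc39a7, a zinc transporter, and its signal of 9.63 and 11.7 cannot be divided between the genes. A second region, chr17:34032270-34032460, had 1.14 and 1.49, and one between them was called in replicate 1 alone, at 2.92, although replicate 2 listed bases there with an FDR down to 6.85e-07. Next in strength were the start of H2-Ke6, chr17:34027981-34028220, with 5.01 and 5.58, and that of H2-K1, chr17:34000261-34000480, with 4.18 and 4.31.

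Aldh1a1 and Aldh1a2 encode enzymes that make retinoic acid from retinal. Aldh1a1 (ENSMUSG00000053279.8, chr19:20492715-20643465, plus strand) was weakly open at its 5′ end, where chr19:20492544-20492768 had 0.388 in replicate 1 and 0.571 in replicate 2. A region 495 bp upstream, chr19:20492001-20492220, had 1.32 and 1.2. The internal start at 20601961, which lies 109246 bp downstream, had 2.34 and 2.51 in chr19:20601801-20602080, the strongest region of the window. Intronic regions followed, with 1.05 and 1.34 at chr19:20614261-20614460 and 0.872 and 1.47 at chr19:20562501-20562680. The CpG ratio was low at both starts, 0.199 at the 5′ end and 0.103 at the internal start.

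Aldh1a2 (ENSMUSG00000013584.5, chr9:71215789-71296243, plus strand) has a single annotated start, with a CpG ratio of 1.05. The start lay in chr9:71215601-71215940, with 1.18 in replicate 1 and 1.49 in replicate 2 and 6 footprints in each. A second region 329 bp upstream, chr9:71215241-71215460, had 1.25 and 1.26. The strongest peak was thus the upstream one in replicate 1 and the one at the start in replicate 2. The other 4 shared regions of the window had signals from 0.452 to 1.11 in replicate 1 and from 0.297 to 0.610 in replicate 2, so the promoter held its strongest sites. The strongest of these 4, chr9:71189121-71189320, had 1.11 and 0.5. In all 40% of the 15 regions in the Aldh1a2 window were shared, the lowest share among the 9 genes, of which the next was Rxrb with 61.5%.

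Crabp2 encodes the protein that carries retinoic acid to its receptors. Its gene (ENSMUSG00000004885.5, chr3:87948666-87953376, plus strand) had no shared region. At the 5′ end, chr3:87948633-87948720 was a peak in replicate 1 alone, with a signal of 0.646 and a lowest FDR of 0.0364. In replicate 2 the peak, chr3:87952495-87952685 with 0.766, lay at the start of a retained-intron transcript 3478 bp further on. The count of 9 open promoters thus includes Crabp2 through different starts. The nearest strong site, chr3:87960921-87961140, lay beyond the gene, 8777 bp from its nearest start, with 5.35 and 6.03. It is shown since it is the strongest site for which Crabp2 has the nearest start (GRCm38.p6, plus strand), with bases in a footprint of both replicates in capitals.
Crabp2 downstream, chr3:87960921-87961140: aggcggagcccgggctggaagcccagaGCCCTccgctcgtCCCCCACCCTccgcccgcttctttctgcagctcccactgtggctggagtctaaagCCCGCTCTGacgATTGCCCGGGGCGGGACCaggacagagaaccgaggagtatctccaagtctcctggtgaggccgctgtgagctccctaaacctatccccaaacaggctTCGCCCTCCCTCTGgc
The site had 6 footprints in replicate 1 and 5 in replicate 2. The strongest regions of the window belonged to neighbours, with 8.11 and 10.2 at chr3:87930101-87930300, the start shared by Isg20l2 and Rrnad1, and 5.27 and 10.5 at chr3:87906021-87906380, the start of Hdgf.

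Stra6 encodes the cell surface receptor that takes up retinol. Its annotated gene (ENSMUSG00000032327.14, chr9:58063788-58153996, plus strand) had a peak at 1 of its annotated starts, that at 58131897, where chr9:58131844-58132069 had 0.915 in replicate 1 and 0.524 in replicate 2. Stronger sites lay further into the gene. They were the intronic chr9:58140001-58140260 with 2.15 and 1.88, and the intronic chr9:58136141-58136360 with 1.66 and 2.26, which lay 1331 bp from the nearest start. The former is shown, as the stronger in replicate 1 and by the mean, while the latter was stronger in replicate 2 (GRCm38.p6, plus strand), with bases in a footprint of both replicates in capitals.
Stra6 intron, chr9:58140001-58140260: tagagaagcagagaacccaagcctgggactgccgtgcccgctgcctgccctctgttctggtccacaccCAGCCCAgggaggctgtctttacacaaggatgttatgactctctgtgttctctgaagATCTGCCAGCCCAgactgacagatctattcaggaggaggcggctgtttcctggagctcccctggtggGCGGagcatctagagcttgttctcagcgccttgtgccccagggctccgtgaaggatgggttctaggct
The site had 3 footprints in each replicate. The strongest regions of the window lay in an intron of Ccdc33, chr9:58036961-58037200 with 2.81 and 3.45 and chr9:58036061-58036260 with 1.88 and 2.48, and at the start of Cyp11a1, the enzyme that begins steroid synthesis, chr9:58014841-58015100 with 2.24 and 2.59.

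CTCF matches were found in 8 of the 105 shared regions (7.62%), against 5.56% of all shared regions, and all 8 were centred in a footprint of both replicates, as were 72% of the CTCF matches in all shared regions. They lay in the windows of Rara (3), Crabp2 (2), Stra6 (2) and Rxra (1). The matches are shown on the strand that matched with 9 bases either side (GRCm38.p6), so that the matched letters can be compared. Capitals mark the match, which differs in extent from the bases in a footprint of both replicates.
Rara window, chr11:98909833-98909862, minus strand: cagatgtggCCACCAGATGGCacccctgaa
Rara intron, chr11:98954434-98954463, plus strand: gacttcccaCCAGTAGGGGGCgcagggaaa
Rara 3′ side, chr11:98975534-98975563, plus strand: ctatgtcagCCACTAGGTGGCagcagctgc
Rxra 3′ side, chr2:27765108-27765137, minus strand: caaatatctCCAGCAGGGGGCagtgctacc
Crabp2 window, chr3:87935891-87935920, plus strand: gctgggtggCCACCAGAGGGCaccattgct
Crabp2 window, chr3:87987135-87987164, minus strand: aggctgtgaCCAGTAGAGGGCgctgcagat
Stra6 window, chr9:58053251-58053280, plus strand: catcctctgCCACTAGGTGGCactgagtga
Stra6 window, chr9:58198115-58198144, plus strand: gatgtttggCCAGCAGATGGCagcaggcgg
By comparison, SP/KLF matches were found in 30 of the 105 (28.6%, against 27.9%) and 11 of their 65 matches were centred in footprints of both replicates, against 28.8% of all SP/KLF matches. The E-box CAGCTG was found in 25 (23.8%, against 21.4%), with 8 of 30 so centred, against 6.58%.

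Signal ratios between the replicates differed at regions with a CTCF match. Of the 8, 7 were higher in replicate 1, and the exception was the Rara intron at a log2 ratio of 1.03. Their median was −0.71, beside 0.13 over the 97 shared regions without a match, of which 35 were higher in replicate 1. Over all shared regions the medians were −0.90 with a match and 0.01 without. A difference of over 2-fold from the median ratio was found at 7 of the 105 regions towards replicate 1, against 7.49%, and at 2 towards replicate 2, against 1.14%. One of the 7 held a CTCF match, and so did 1 of the 2. Over all shared regions with a CTCF match, 38.6% were over 2-fold towards replicate 1 and 0.0555% towards replicate 2, and of those without a match 5.66% and 1.2%. The part of any library property in these ratios was not tested.

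**Figure D5:**
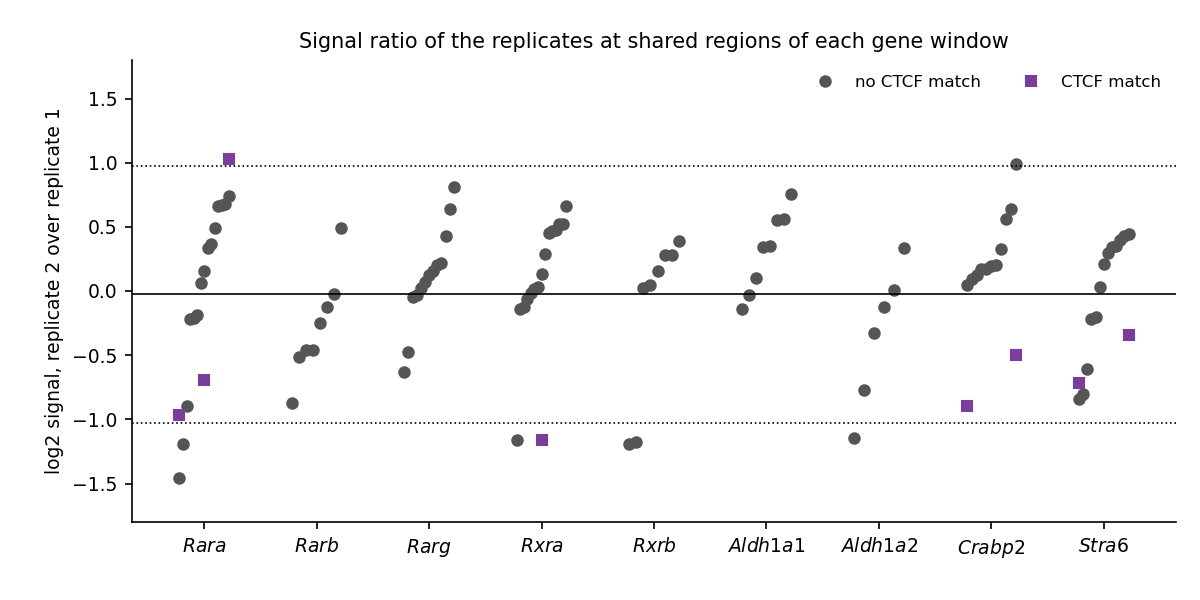
Log2 ratio of signal in replicate 2 to replicate 1 at each shared region by gene window, with purple squares for regions with a CTCF match and points spread sideways for sight alone; the solid line is the median of all shared regions and the dotted lines 2-fold either side. Of the 8 squares 7 lie below 0, and that of the Rara intron lies at 1.03.

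Of 46 other genes of the retinoid pathway, 33 had a promoter peak in both replicates, where 62.3% of all protein-coding genes did. All 9 other nuclear receptors did, from 0.549 and 0.649 at Rxrg, the retinoid X receptor gamma, up. The strongest were Ppard (8.63 in replicate 1 and 8.96 in replicate 2) and Nr1h2 (7.35 and 8.86), a fatty acid and an oxysterol receptor. All 7 coregulators did, led by Ncoa2 (12.2 and 14.5), a coactivator, and Ncor1 (4.87 and 5.14), a corepressor. Enzymes that oxidise retinol or retinal, or reverse that step, were open at 7 of 8, led by Dhrs3 (3.04 and 3.2) and Dhrs4 (1.87 and 2.42), and Adh7 had no peak.

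Against 62.3% of all protein-coding genes, those of uptake and storage were open at 2 of 7. These were Lrat (0.990 and 1.06), which esterifies retinol for storage, and Rbp7 (0.797 and 0.625), a cellular retinol-binding protein, while Rbp2, Stra6l and Ttr had no peak and Rbp4 had one in replicate 1 alone. Of the 3 enzymes that break retinoic acid down, Cyp26b1 was open (0.754 and 0.813) and Cyp26a1 and Cyp26c1 had no peak. Of the carriers, Fabp5 was open (4.38 and 3.72) and Crabp1 was not. Known targets were open at 6 of 10, again beside 62.3% of all protein-coding genes. They were led by Meis1 (4.34 and 5.53), a homeobox factor, and Tgm2 (4.17 and 1.91), a transglutaminase. Hoxb1, Cdx1, Stra8 and Rarres1 had no promoter peak in either replicate.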

How the data were processed

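The 2 DNase-seq libraries of whole ovary form a single group. Per the file headers and the text deposited with the samples, peaks, footprints and FDR values were made from each library's own filtered alignments on mm10, without pooling. For the aligner, the callers and the handling of CAST alleles, names and versions were not given in the sources used here. Peak signal was scaled by the authors to a depth that is not stated, so library depth is unknown and no counting interval is given. Its values rise in whole steps of 0.0108 in replicate 1 and 0.00782 in replicate 2 (100% of values to within 0.05 of a step). The step of replicate 1 was 1.38 times that of replicate 2. What a step stands for, and with it the relative depth of the libraries, was not tested. The deposited footprints carry a constant p-value label of 0.01, and the deposited peak lists leave their p-value and q-value fields empty (−1).

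The longer peak list of each library (95898 and 83982 peaks) was the main list and the shorter (60823 and 50503) an alternative. Chromosome Y was left out. Peaks overlapped at 1 bp or more, promoters were 500 bp either side of any annotated start (GENCODE M21), and 20 motifs were searched. Sequences came from GRCm38.p6, whose chromosome lengths fit the files, and RefSeq starts from a promoter table that held 8 of the 9 genes. All motif matches and printed letters are those of this reference, and CAST alleles were not read. Overlap and motif searches were tested on simulated data with planted answers. Python 3.11.15, NumPy 2.4.6, pandas 2.3.3, pysam 0.24.0 and Matplotlib 3.10.9 were used. With 1 group there is no contrast and no test, and values are given per library or as mean and SD.

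The genes, the pathway and marker lists and the site cluster were chosen with earlier results of these data known. All 9 genes are named, with their promoter regions, the 3 strongest shared regions of each window by mean rank and every shared region of the Rara cluster. Of the other pathway genes, the 2 strongest per role and those without a peak in either replicate are named. One gene that this rule takes in is not reported here. Any other region or gene was chosen after its values were seen. The alternatives tried were shorter lists, equal peak numbers, a reciprocal overlap of 50%, promoters of 2000 bp and flanks of 10 kb either side, a single half-site form, and each replicate left out. Protein-coding starts alone and regions widened by 50 bp were added after seeing the data.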

Additional observations from a re-analysis of the deposited data

How the results depend on the processing

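With the shorter peak lists, shared regions in the windows fell from 105 to 67 and those of the Rara cluster from 14 to 8, while 7 of the 9 genes still had a promoter peak in both replicates. Peaks of a single library, leaving out the other, numbered 129 to 140 in the windows and 16 to 19 in the Rara cluster, and open promoters 9 to 9 of the members and 33 to 34 of the pathway genes. The mean share of footprints that overlap the other replicate, 59.4%, was 43.1% at a reciprocal overlap of 50%, 63.9% with the shorter lists and 56.5% with flanks of 10 kb. Regions with a whole direct repeat numbered 0 as deposited and 1 when widened by 50 bp, an alternative added after seeing the data. With protein-coding starts alone, also added, 8 genes were open, since Crabp2 lost replicate 2. Of 27 promoter signals under 3 alternatives (shorter lists, promoters of 2000 bp, protein-coding starts), 21 stayed within 1 SD of the main value. Except for Rara with promoters of 2000 bp (5.22 against 5.19), these were the main value itself. The alternatives pick from the same deposited peak signals, so a value changes only where a peak enters or is lost. The values that moved were Rarg 7.43 and Stra6 1.96 with promoters of 2000 bp and Rxra 2.10 with protein-coding starts, and 3 were lost with the promoter peak (Crabp2 in the shorter lists and over protein-coding starts, Stra6 in the shorter lists). Leaving out a replicate cannot move a mean of 2 by over 1 SD and is not counted. Of 27 densities, 10 moved by over 1.5 times. No paired analysis was possible because there is 1 group and no contrast. Depth is unknown, so a missing peak says only that none was called.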
